A study of Homo sapiens with 14 samples.

Results

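The 40 genes described here encode the machinery that takes a cell from G2 through mitosis, from cyclin B and its kinase to the kinetochore, the spindle checkpoint and the contractile ring. They were taken by gene symbol from a fixed list of 40, chosen with earlier results of these data known. Shares of the members set beside those of all genes are therefore descriptions. The condition was that a gene average at least 1 FPKM (reads or fragments scaled to gene length and library depth) over the 6 libraries of a table. All 40 met it in both tables, among 11585 genes kept for the EZH2 series and 11678 for the LAT1 series, of 63677 listed in each. The cells were KYSE510, an esophageal squamous cell carcinoma line, and RNA was sequenced 48 h after lipid transfection of small interfering RNA (siRNA). The EZH2 series held 2 libraries apiece for siEZH2-1 and siEZH2-2 and for a negative control siRNA, siNC. The LAT1 series was laid out in the same way, with siLAT1-2, siLAT1-3 and siNC libraries of its own. EZH2 is a histone methyltransferase of Polycomb repression, and LAT1, encoded by SLC7A5, imports large neutral amino acids. The comparisons ask what loss of either transcript does to the transcriptome, here to the genes of cell division.

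Transcripts of these genes are low in G1 and accumulate in S phase and G2. In G1 the DREAM complex, built on the MuvB core, represses many of them, and later MuvB joins MYBL2 and then FOXM1 to activate them. MuvB contacts DNA at the cell cycle genes homology region (CHR), usually near the transcription start, and many of the same promoters carry CCAAT boxes bound by the factor NF-Y. In a bulk library, fewer cells in G2 or mitosis and less transcript per cell cannot be told apart.

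The promoters of many of these genes, though not of all, hold the same short motifs. RefSeq windows (GRCh38.p14) of 300 bases, from 250 before to 50 after a transcription start, were at hand for 34 of the 40 members, and AURKA, BIRC5, FOXM1, TPX2, TTK and UBE2C had no entry. The CHR core TTTGAA, searched on both strands between 60 bases before and 50 after the start, was found in 21 of 34 members (61.8%, 95% Wilson interval 45 to 76.1) and in 1710 of 27305 genes with a window (6.26%). A gene with several windows was counted if any of them held the motif, and matches of CHR and CCAAT were allowed to overlap. CCAAT, on both strands and over the 300 bases, was found in 27 of 34 members (79.4%) and 39.7% of all genes. A match describes the letters of the window and does not show binding. The windows of ANLN, KIF23, CDK1 and PLK1 are printed because, of the called members with a CHR core in that stretch, ANLN and KIF23 changed most in the EZH2 series and CDK1 and PLK1 in the LAT1 series. Capitals mark both motifs on either strand (reverse complements TTCAAA and, for the NF-Y box, ATTGG), and each is read 5′ to 3′ along its gene's strand.
ANLN (chr7:36389612-36389911, plus strand): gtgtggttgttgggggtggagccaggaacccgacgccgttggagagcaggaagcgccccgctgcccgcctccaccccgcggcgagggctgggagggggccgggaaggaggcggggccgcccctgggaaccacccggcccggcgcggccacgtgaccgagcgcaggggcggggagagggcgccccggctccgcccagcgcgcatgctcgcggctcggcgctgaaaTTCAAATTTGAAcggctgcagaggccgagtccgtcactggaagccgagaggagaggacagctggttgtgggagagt
KIF23 (chr15:69414099-69414398, plus strand): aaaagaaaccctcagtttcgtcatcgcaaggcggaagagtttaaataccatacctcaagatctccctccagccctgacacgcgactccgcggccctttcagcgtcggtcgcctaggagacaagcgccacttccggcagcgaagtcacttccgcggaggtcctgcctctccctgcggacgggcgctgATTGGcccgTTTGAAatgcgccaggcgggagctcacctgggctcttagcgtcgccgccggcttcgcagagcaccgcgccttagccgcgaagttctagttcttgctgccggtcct
CDK1 (chr10:60778228-60778527, plus strand): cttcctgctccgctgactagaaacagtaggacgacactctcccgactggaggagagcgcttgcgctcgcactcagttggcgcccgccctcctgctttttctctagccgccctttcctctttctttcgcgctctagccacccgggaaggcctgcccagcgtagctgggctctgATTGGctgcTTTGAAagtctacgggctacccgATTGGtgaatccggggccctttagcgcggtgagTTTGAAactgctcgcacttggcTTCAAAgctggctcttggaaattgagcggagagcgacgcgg
PLK1 (chr16:23678639-23678938, plus strand): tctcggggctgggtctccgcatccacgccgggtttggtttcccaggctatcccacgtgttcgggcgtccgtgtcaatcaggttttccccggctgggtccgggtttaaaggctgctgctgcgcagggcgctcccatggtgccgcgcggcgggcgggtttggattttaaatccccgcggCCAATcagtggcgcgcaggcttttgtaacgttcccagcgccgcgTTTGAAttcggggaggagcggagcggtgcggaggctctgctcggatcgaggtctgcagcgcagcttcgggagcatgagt
In ANLN the CHR core lay in adjoining reverse and forward copies that began 26 and 20 bases before the start. In KIF23 it lay 55 bases before the start, a few bases after a CCAAT box, in CDK1 13 before and 9 after it, and in PLK1 29 before it. Of the 21 members with a match between 60 bases before and 50 after the start, 2 were higher and 5 lower with siEZH2. Of the 13 without one in that stretch, 1 was higher and 4 lower, and of all genes tested 17.0% were higher and 13.0% lower. The 13 include CDC20 and TOP2A, whose CHR matches lie further upstream in the window. With siLAT1 the counts were 2 higher and 7 lower of 21, and 2 higher and 9 lower of 13, against 19.3% higher and 15.3% lower of all genes tested.

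**Figure D1:**
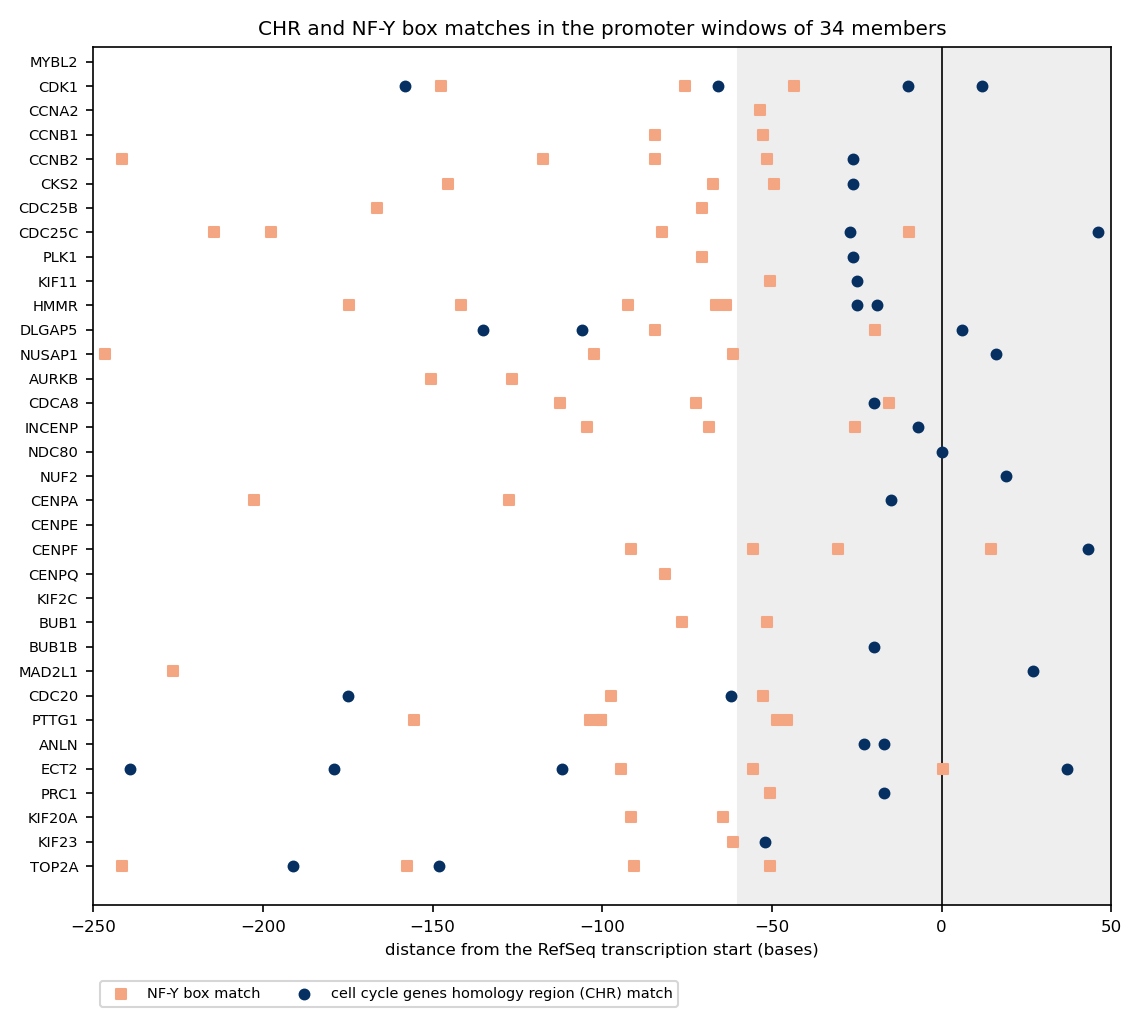
Positions of matches to the cell cycle genes homology region (circles) and to the NF-Y box (squares) in the promoter windows of the 34 members with an entry, in bases from the RefSeq start, all windows of a gene overlaid. The grey band is the stretch from 60 bases before to 50 after the start, in which 21 of 34 members held a CHR match, mostly just before the start.

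The depth of a library, estimated from the size of 1 read in low values, was 21340162 to 27412281 counted reads or fragments for the EZH2 series and 12919897 to 16662501 for the LAT1 series. Whether the libraries of a group were grown separately is not stated, and p-values therefore cover the spread among libraries alone, which may be technical. Of the 40 members, 10 overlap another annotated gene, and the strand setting of the counting is not given in the sources used here, so reads of such neighbours cannot be told apart. They are FOXM1, CCNA2, CDC25C, PLK1, HMMR, BUB1B, ANLN, PRC1, KIF20A and KIF23. EZH2 stood at 40.6% of the siNC level with siEZH2-1 and 36.4% with siEZH2-2, in the EZH2 series, and SLC7A5 at 20.3% with siLAT1-2 and 26.0% with siLAT1-3. SLC7A5 also fell in the EZH2 series, to 24.9% and 78.6% of siNC, whereas EZH2 was not called in the LAT1 series (98.4% and 93.8%). All 12 squamous markers checked were kept in both tables, KRT5 highest at 490 and 468 FPKM on average. The 7 fibroblast, 8 immune and 6 endothelial markers summed to at most 1.52, 0.33 and 0.19 FPKM in any EZH2-series library and 2.56, 0.44 and 1.53 FPKM in any LAT1-series library.

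With EZH2 silenced, more of these genes fell than rose, and most of the changes were modest. Taking the mean of both siRNAs against siNC, 10 of 40 members were lower, 4 were higher and 26 did not pass (limma on log2(FPKM + 1), Benjamini-Hochberg adjusted p under 0.05 over all genes). The 14 calls compare with 30.0% called of all genes tested. Of those genes, 13.0% were lower and 17.0% higher, and among the members 25% and 10%. The median log2 fold change was -0.08 over the members and 0.026 over all genes. All 4 siEZH2 libraries lay below both siNC libraries for 13 members (32.5%, against 15.3% of all genes) and above them for 6 (15%, against 25.1%). The lowest changes were ANLN (-0.86), CENPE (-0.57), KIF23 (-0.55) and AURKA (-0.48), and the highest BIRC5 (0.68), MYBL2 (0.46), CENPA (0.33) and NUSAP1 (0.32). Summed over the 40 genes, siEZH2-1 libraries held 1883 and 1879 FPKM and siEZH2-2 libraries 1798 and 1821 FPKM, against 2033 and 2007 FPKM in siNC. With the filter raised to 5 FPKM, which all 40 members passed, 16 members were called, 4 higher and 12 lower. The share called of all genes then rose to 37.2% of 7330, 1476 higher and 1250 lower. When the siRNAs were not fitted apart but as 1 group of 4, 7 members were called, 3 higher and 4 lower. ANLN (adjusted p = 0.126) and KIF23 (adjusted p = 0.13) were no longer among them. Calls over all genes also became fewer in the pooled fit, at 9.95% of 11585 genes, 827 higher and 326 lower. Without siNC replicate 1, fewer members were called lower, and fewer of all genes as well.

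With LAT1 silenced, falls again outnumbered rises. Of 40 members, 17 were lower, 5 higher and 18 did not pass. The 22 calls compare with 34.5% called of all genes tested, or 15.3% lower and 19.3% higher. The shares among the members were 42.5% and 12.5%, and the median log2 fold change was -0.077 over the members and 0.01 over all genes. All 4 siLAT1 libraries lay below both siNC libraries for 17 members (42.5%, against 16.9% of all genes) and above them for 6 (15%, against 24.4%). The lowest changes were CENPQ (-0.94), TOP2A (-0.45), CDK1 (-0.37) and AURKA (-0.35), and the highest BIRC5 (0.48) and CENPF (0.22). The 40 genes summed to 1805 and 1793 FPKM with siLAT1-2 and 1719 and 1749 FPKM with siLAT1-3, against 1886 and 1892 FPKM in siNC. With the filter raised to 5 FPKM, which all 40 members passed, 23 members were called, 5 higher and 18 lower. The share called of all genes then rose to 47.1% of 7342, 1905 higher and 1553 lower. With both siRNAs pooled as 1 group, 6 members were called, 2 higher and 4 lower, and CENPQ, TOP2A and CDK1 lost their calls (adjusted p = 0.427, 0.135 and 0.222). The pooled fit called 11.2% of 11678 genes, 989 higher and 320 lower. Without siNC replicate 2, fewer members were called higher, and fewer of all genes as well.

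**Figure D2:**
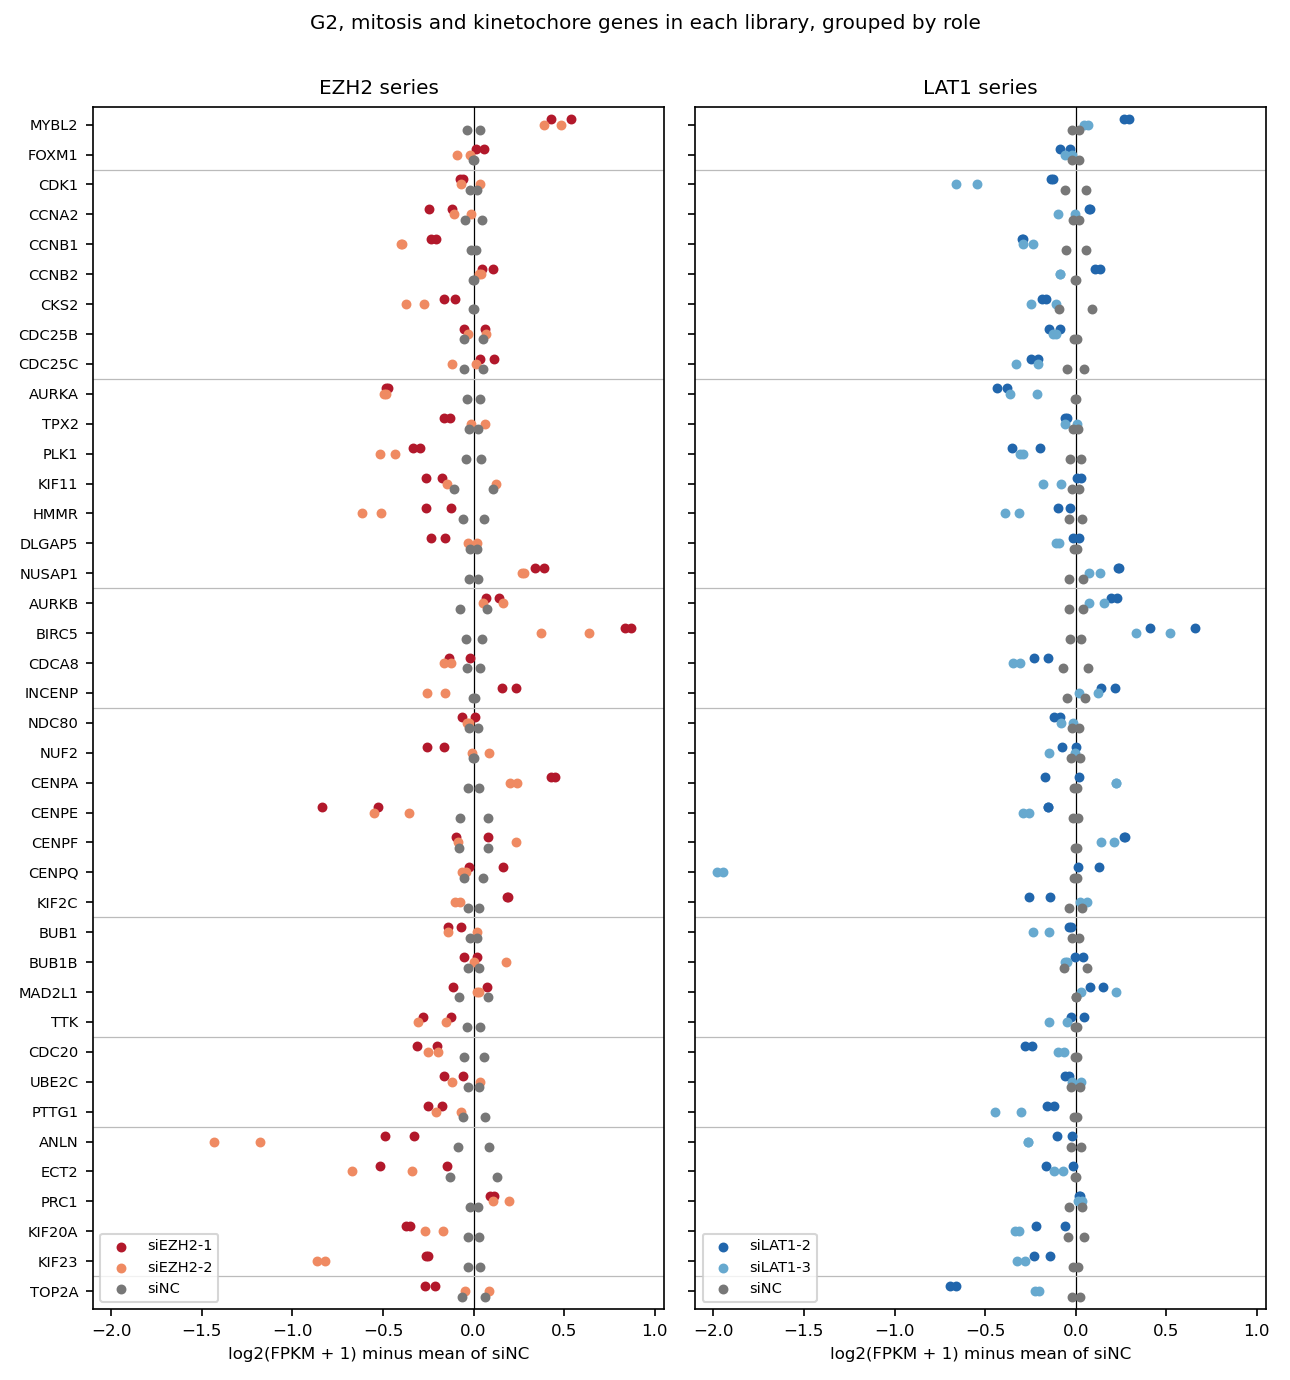
Each of the 40 members (rows, grouped by role from transcription factors at the top to TOP2A) in each library, as log2(FPKM + 1) minus the mean of the siNC libraries of the same series, for the EZH2 series (left) and LAT1 series (right). Points are libraries. Most members lie within 0.5 of siNC, BIRC5 stands to the right in both series, ANLN with siEZH2-2 to the left, and CENPQ lies near -1.96 with siLAT1-3 only among the 4 siRNAs.

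Of the transcription factors that drive the program, MYBL2 rose and FOXM1 passed no test. MYBL2, the B-Myb subunit that joins MuvB in S phase, measured 117.08 and 126.47 FPKM with siEZH2-1 and 121.58 and 114.08 FPKM with siEZH2-2, against 84.64 and 88.99 FPKM with siNC. The LAT1 series gave 198.98 and 195.59 FPKM with siLAT1-2 and 170.34 and 167.62 FPKM with siLAT1-3, against 160.21 and 164.39 FPKM with siNC. Every siRNA library lay above its siNC libraries, by a wide margin in the EZH2 series and with siLAT1-2 and by a narrow one with siLAT1-3. The log2 fold changes were 0.46 ± 0.0545 (SE; limma adjusted p = 0.00193) for siEZH2 and 0.17 ± 0.0235 (adjusted p = 0.00205) for siLAT1, and siLAT1-3 alone was not called (0.058, adjusted p = 0.154). FOXM1, the forkhead factor of the G2 genes, was called in neither series (log2 -0.0089, 95% interval -0.12 to 0.10, for siEZH2 and -0.05, interval -0.12 to 0.023, for siLAT1).

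Among the genes of mitotic entry, cyclin B1 fell in both series while its partners moved less evenly. CCNB1, the cyclin that activates CDK1 at the start of mitosis, measured 117.50 and 115.21 FPKM with siEZH2-1 and 103.10 and 102.65 FPKM with siEZH2-2, against 137.36 and 134.59 FPKM with siNC. The LAT1-series values were 69.96 and 70.14 FPKM with siLAT1-2 and 70.13 and 73.09 FPKM with siLAT1-3, against 82.84 and 89.50 FPKM with siNC. No siRNA library reached its siNC libraries in either series. The mean changes were -0.31 ± 0.04 (SE; limma adjusted p = 0.0026) with siEZH2 and -0.28 ± 0.0364 (adjusted p = 0.00159) with siLAT1. CDK1, the kinase itself, measured 36.31 and 36.51 FPKM with siLAT1-2 and 24.93 and 27.07 FPKM with siLAT1-3, against 38.30 and 41.63 FPKM with siNC. It fell with siLAT1-3 (log2 -0.60 ± 0.0527, adjusted p = 3.23e-04) and was not called with siLAT1-2 (-0.13, adjusted p = 0.105), and the siRNAs differed by -0.47 (adjusted p = 0.0011). In the EZH2 series CDK1 was not called (-0.042, 95% interval -0.16 to 0.073). Cyclin B2 (CCNB2) and cyclin A2 (CCNA2) were not called with the mean of both siRNAs in either series, although CCNB2 rose with siLAT1-2 alone (log2 0.12, adjusted p = 0.0171). The CDK-binding protein gene CKS2 fell with the siEZH2 mean (-0.23, adjusted p = 0.0147) and had a similar value with siLAT1 that did not pass (-0.18, adjusted p = 0.0542). CKS2 was no longer called with either siNC library left out (adjusted p = 0.0951 and 0.0808). The phosphatases CDC25B and CDC25C, which remove the inhibitory phosphates of CDK1, fell with siLAT1 (-0.12 and -0.25, adjusted p = 0.0172 and 0.0143) and were not called with siEZH2 (0.013 and 0.012). CDC25B was no longer called with siNC replicate 1 (adjusted p = 0.08) or 2 (0.113) left out, nor CDC25C with siNC replicate 2 left out (0.116).

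AURKA and PLK1, kinases of the centrosome and spindle, fell with all 4 siRNAs. AURKA, the Aurora kinase of centrosome maturation, measured 52.42 and 52.84 FPKM with siEZH2-1 and 51.85 and 52.37 FPKM with siEZH2-2, against 71.79 and 75.42 FPKM with siNC. LAT1-series values of AURKA were 42.54 and 41.03 FPKM with siLAT1-2 and 43.19 and 47.99 FPKM with siLAT1-3, against 55.81 and 55.65 FPKM with siNC. The groups did not overlap, and each siRNA alone was called. AURKA stood at 71.5% and 70.8% of siNC with siEZH2-1 and siEZH2-2, and the difference between these siRNAs was -0.014 on the log2 scale (95% interval -0.13 to 0.11). The mean changes were -0.48 ± 0.043 (SE; limma adjusted p = 7.23e-04) with siEZH2 and -0.35 ± 0.0435 (adjusted p = 0.00132) with siLAT1. PLK1, the polo-like kinase that acts on centrosomes, kinetochores and the midzone, measured 28.08 and 28.91 FPKM with siEZH2-1 and 26.21 and 24.64 FPKM with siEZH2-2, against 34.69 and 36.73 FPKM with siNC. With siLAT1-2 it measured 23.47 and 20.97 FPKM and with siLAT1-3 21.63 and 21.93 FPKM, against 27.63 and 26.42 FPKM with siNC. Its changes were -0.39 (adjusted p = 0.00261) and -0.29 (adjusted p = 0.00436), and again no library of an siRNA reached siNC. TPX2, which activates Aurora A on the spindle, was not called in either series (-0.06, 95% interval -0.17 to 0.048, and -0.041, interval -0.10 to 0.023).

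Transcripts of other spindle proteins moved in both directions. HMMR, a microtubule-binding protein of the spindle pole, fell in both series (log2 -0.38, limma adjusted p = 0.0077, and -0.21, adjusted p = 0.0075). Its fall was uneven between siRNAs. It stood at 66.7% of siNC with siEZH2-2 and 77.5% with siLAT1-3, where it was called, and at 87.1% with siEZH2-1 and 95.4% with siLAT1-2, where it was not. Without siNC replicate 1 of its own series, the HMMR call was lost in each (adjusted p = 0.0638 and 0.0713). NUSAP1, which bundles microtubules around chromosomes, measured 76.13 and 73.47 FPKM with siEZH2-1 and 69.83 and 70.49 FPKM with siEZH2-2, against 59.03 and 56.91 FPKM with siNC. Its LAT1-series values were 65.68 and 65.45 FPKM with siLAT1-2 and 60.94 and 58.48 FPKM with siLAT1-3, against 57.02 and 53.99 FPKM with siNC. It rose by log2 0.32 (adjusted p = 0.00319) and 0.17 (adjusted p = 0.00692), the second without a call when siNC replicate 2 was left out (adjusted p = 0.063). The motor KIF11, which pushes spindle poles apart, and DLGAP5, which stabilises kinetochore fibres, were not called with the mean in either series. Single siRNAs lowered them: KIF11 with siLAT1-3 (-0.13, adjusted p = 0.047), and DLGAP5 with siEZH2-1 (-0.20, adjusted p = 0.046) and siLAT1-3 (-0.10, adjusted p = 0.0369). The siEZH2-1 call of DLGAP5 was lost without siEZH2-1 replicate 2.

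Of the chromosomal passenger complex, which corrects kinetochore attachments and later works at the midzone, the survivin gene rose in both series and its partners moved less evenly. BIRC5 (survivin) measured 8.97 and 9.22 FPKM with siEZH2-1 and 7.68 and 6.22 FPKM with siEZH2-2, against 4.42 and 4.76 FPKM with siNC. With LAT1 silenced it measured 6.51 and 7.93 FPKM with siLAT1-2 and 7.12 and 6.11 FPKM with siLAT1-3, against 4.78 and 4.53 FPKM with siNC. All 8 siRNA libraries were above their siNC libraries, at 198%, 151%, 155% and 142% of the siNC mean for siEZH2-1, siEZH2-2, siLAT1-2 and siLAT1-3. On the log2(FPKM + 1) scale, which understates the change of a gene this low, it rose by 0.68 ± 0.0847 (SE; limma adjusted p = 0.00235) and 0.48 ± 0.0858 (adjusted p = 0.00583). In the LAT1 series BIRC5 was no longer called with siNC replicate 2 left out (adjusted p = 0.0544). BIRC5 had the lowest siNC level of the 40 in both series. Borealin (CDCA8) fell with siLAT1 (-0.26, adjusted p = 0.00588) and was not called with siEZH2 (-0.11, adjusted p = 0.152). The catalytic subunit AURKB rose with siLAT1 (0.16, adjusted p = 0.0141; 0.115 without siNC replicate 1) and was not called with siEZH2 (0.11, adjusted p = 0.242).

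INCENP, the scaffold of that complex, differed between the EZH2 siRNAs. It measured 14.92 and 16.02 FPKM with siEZH2-2 and 21.41 and 20.21 FPKM with siEZH2-1, against 18.09 and 17.95 FPKM with siNC. The siEZH2-2 libraries lay below siNC and the siEZH2-1 libraries above. The difference between siEZH2-2 and siEZH2-1 was -0.41 ± 0.0611 (SE; limma adjusted p = 0.00769), while against siNC the values were -0.21 with siEZH2-2 (adjusted p = 0.05, under the threshold before rounding) and 0.20 with siEZH2-1 (adjusted p = 0.0552). The difference between the siRNAs was not called without siEZH2-1 replicate 1 (adjusted p = 0.0531). In the LAT1 series INCENP rose with siLAT1-2 (0.18, adjusted p = 0.0462) and was not called with siLAT1-3 (0.072, adjusted p = 0.365).

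At the centromere and kinetochore, CENPE fell in both series, CENPA rose with siEZH2 and CENPF with siLAT1. CENPE, the kinesin that carries chromosomes to the plate, measured 4.95 and 3.8 FPKM with siEZH2-1 and 4.85 and 5.69 FPKM with siEZH2-2, against 8.04 and 7.12 FPKM with siNC. With siLAT1-2 it measured 8.32 FPKM in both libraries and with siLAT1-3 7.45 and 7.65 FPKM, against 9.26 and 9.45 FPKM with siNC. Each siRNA library lay below its siNC libraries. The changes were -0.57 ± 0.109 (SE; limma adjusted p = 0.0109) with siEZH2, lost without siNC replicate 1 (adjusted p = 0.0802), and -0.21 ± 0.0369 (adjusted p = 0.00503) with siLAT1. CENPA, the histone H3 variant that marks the centromere, measured 14.31 and 14.08 FPKM with siEZH2-1 and 12.26 and 11.87 FPKM with siEZH2-2, against 10.00 and 10.44 FPKM with siNC. It rose by 0.33 with siEZH2 (adjusted p = 0.00462) and was not called with the siLAT1 mean (0.073, adjusted p = 0.359). With siLAT1-3 alone CENPA was called higher (0.22, adjusted p = 0.0403), a call lost without siNC replicate 1. CENPF, a large protein of the outer kinetochore, rose with siLAT1 (0.22, adjusted p = 0.00162) and was not called with siEZH2 (0.033, 95% interval -0.21 to 0.28). NDC80 and NUF2, which together form the microtubule-binding arm of the Ndc80 complex, were not called with the mean in either series. NUF2 fell with siEZH2-1 (-0.21, adjusted p = 0.0465), a call lost without siEZH2-1 replicate 2. The depolymerase KIF2C rose with siEZH2-1 (0.19, adjusted p = 0.039), fell with siLAT1-2 (-0.20, adjusted p = 0.0187), and was called with neither mean. It had the highest adjusted p of the 5 members higher with siEZH2-1, a count that was 4 under quantile normalization or without a filter on low values.

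CENPQ, a subunit of the constitutive centromere network, gave the largest change of the 40 genes, with 1 siRNA. It measured 5.27 and 5.41 FPKM with siLAT1-3 and 23.93 and 25.99 FPKM with siLAT1-2, against 23.55 and 23.82 FPKM with siNC. With siEZH2-1 it measured 16.63 and 14.46 FPKM and with siEZH2-2 14.05 and 14.29 FPKM, against 15.32 and 14.17 FPKM with siNC. Only the siLAT1-3 libraries stood apart, at 22.5% of siNC, and the other siRNAs gave 105% (siLAT1-2), 105% (siEZH2-1) and 96.1% (siEZH2-2). The change with siLAT1-3 was -1.96 ± 0.0471 (SE; limma adjusted p = 4.43e-06) and with siLAT1-2 0.072 (adjusted p = 0.288). SLC7A5, the intended target, was at 26.0% of siNC with siLAT1-3 and at 20.3% with siLAT1-2. The mean change of -0.94 therefore describes neither siRNA.

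Of the spindle checkpoint genes, BUB1 alone was called with a mean, and that with siLAT1. BUB1, BUB1B, MAD2L1 and TTK, which sense unattached kinetochores and restrain CDC20, gave 0 calls among 4 with the siEZH2 mean (limma adjusted p from 0.0566 for TTK to 0.99 for MAD2L1). At an unadjusted p under 0.05 the count was 1 of 4, TTK at 0.018. With siLAT1, BUB1 fell (-0.11, adjusted p = 0.046), and the other 3 did not pass. With 30.0% and 34.5% of all genes called in the EZH2 and LAT1 series, counts this small over 4 genes do not set them apart. The BUB1 call was lost without siLAT1-2 replicate 1 (adjusted p = 0.0833) or 2 (0.0941), siLAT1-3 replicate 1 (0.0855), or siNC replicate 1 (0.114) or 2 (0.235). All 4 siEZH2 libraries of TTK, at 19.60 to 22.36 FPKM, lay below the siNC libraries at 25.12 and 23.90 FPKM.

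Of the genes that trigger anaphase, CDC20 fell in both series. CDC20, the activator of the anaphase-promoting complex (APC/C), measured 95.20 and 102.96 FPKM with siEZH2-1 and 103.23 and 99.28 FPKM with siEZH2-2, against 114.14 and 123.21 FPKM with siNC. With siLAT1-2 it measured 108.44 and 105.48 FPKM and with siLAT1-3 119.60 and 122.50 FPKM, against 127.72 and 128.55 FPKM with siNC. No siRNA library reached its siNC libraries. The changes were -0.24 (limma adjusted p = 0.0204) and -0.17 (adjusted p = 0.00222). The siEZH2 call was lost without siEZH2-1 replicate 1 (adjusted p = 0.0513), siNC replicate 1 (0.0524) or siNC replicate 2 (0.124). Securin (PTTG1), the separase inhibitor that the APC/C destroys, fell with siLAT1 (-0.26, adjusted p = 0.00418), whereas its siEZH2 value missed the threshold (-0.18, adjusted p = 0.0745). UBE2C, the ubiquitin-conjugating enzyme of the APC/C, was called in neither series.

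Among the cytokinesis genes, ANLN and KIF23 fell with the siEZH2 mean, most with siEZH2-2. ANLN, the anillin scaffold of the contractile ring, measured 104.18 and 93.15 FPKM with siEZH2-1 and 47.98 and 57.48 FPKM with siEZH2-2, against 139.38 and 123.55 FPKM with siNC. The siEZH2-1 libraries lay between the other groups, at 75.1% of siNC, and the siEZH2-2 libraries were lowest, at 40.1%. The log2 fold changes were -0.41 ± 0.106 (SE; limma adjusted p = 0.0326) and -1.30 ± 0.106 (adjusted p = 5.53e-04), and the siRNAs differed by -0.89 ± 0.106 (adjusted p = 0.00315). In the LAT1 series ANLN measured 72 and 76.42 FPKM with siLAT1-2 and 64.56 and 64.45 FPKM with siLAT1-3, against 76.10 and 79.02 FPKM with siNC. It fell with siLAT1-3 (-0.26, adjusted p = 0.00252), and the mean change of -0.16 (adjusted p = 0.00872) was lost without siNC replicate 2 (adjusted p = 0.081).

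KIF23, the kinesin of the centralspindlin complex at the midzone, was also lowest with siEZH2-2. It measured 21.56 and 21.45 FPKM with siEZH2-1 and 13.78 and 14.24 FPKM with siEZH2-2, against 26.51 and 25.29 FPKM with siNC. With siLAT1-2 it measured 24.37 and 25.95 FPKM and with siLAT1-3 22.70 and 23.51 FPKM, against 28.45 and 28.96 FPKM with siNC. Groups did not overlap in either series, and siEZH2-2 gave the lowest level, at 54.1% of siNC. The mean changes were -0.55 ± 0.047 (SE; limma adjusted p = 6.55e-04) and -0.24 ± 0.0352 (adjusted p = 0.00243), and siEZH2-2 differed from siEZH2-1 by -0.58 (adjusted p = 0.00127). KIF20A, the kinesin that brings the passenger complex to the midzone, fell by 0.29 with siEZH2 (adjusted p = 0.00792) and by 0.23 with siLAT1 (adjusted p = 0.0132) on the log2 scale. Its calls were lost without siNC replicate 2 in the EZH2 series (adjusted p = 0.0574) and without siNC replicate 1 in the LAT1 series (adjusted p = 0.109). ECT2, which activates RhoA at the cleavage site, had a mean of -0.42 with siEZH2 that did not pass (95% interval -0.76 to -0.08, adjusted p = 0.0663). Its libraries scattered within groups, at 33.67 and 25.83 FPKM with siEZH2-1, 23.06 and 29.35 FPKM with siEZH2-2 and 40.99 and 34.02 FPKM with siNC. PRC1, which bundles midzone microtubules, was called in neither series.

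TOP2A, the topoisomerase that untangles sister chromatids, fell most with siLAT1-2. It measured 72.09 and 70.36 FPKM with siLAT1-2 and 97.71 and 99.30 FPKM with siLAT1-3, against 112.76 and 116.34 FPKM with siNC. The groups were in separate steps, at 62.2% and 86.0% of siNC. The changes were -0.68 ± 0.0294 (SE; limma adjusted p = 2.13e-05) and -0.22 ± 0.0294 (adjusted p = 0.00218), with a difference of 0.46 between siLAT1-3 and siLAT1-2 (adjusted p = 1.11e-04). In the EZH2 series it measured 69.96 and 67.26 FPKM with siEZH2-1 and 78.54 and 86.34 FPKM with siEZH2-2, against 84.81 and 77.81 FPKM with siNC, and the mean was not called (-0.11, adjusted p = 0.206). It fell with siEZH2-1 (-0.24, adjusted p = 0.0449), a call lost without siEZH2-1 replicate 2, and differed between siEZH2-2 and siEZH2-1 by 0.26 (adjusted p = 0.0497). Over the 11 other settings that difference of TOP2A had adjusted p from 0.0346 to 0.227 and was called in 2, and it was not called with any single library left out.

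**Figure D3:**
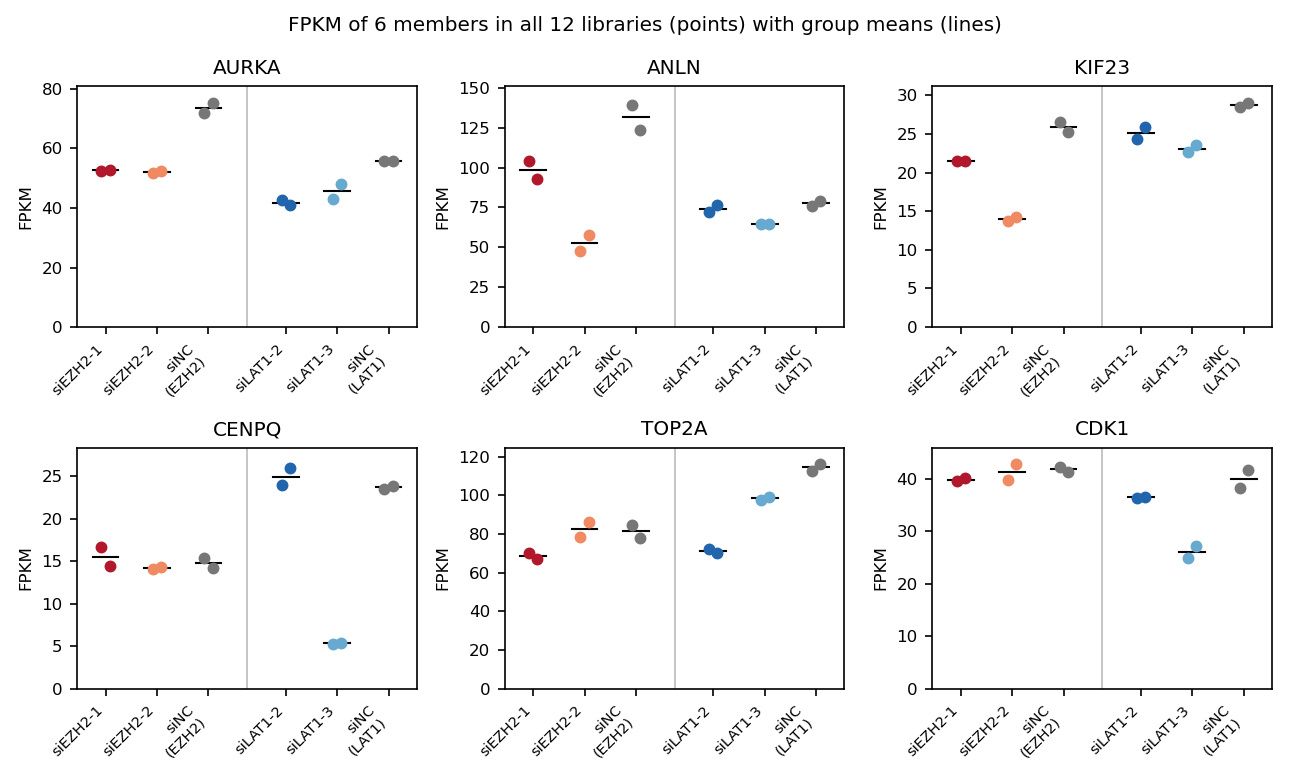
FPKM of AURKA, ANLN, KIF23, CENPQ, TOP2A and CDK1, a choice of members with large falls, in all 12 libraries (points), with group means (lines) and the EZH2 series left of the LAT1 series, tables normalized separately. AURKA is similar with both siRNAs of a series, ANLN and KIF23 are lowest with siEZH2-2, CENPQ and CDK1 are lowest with siLAT1-3, and TOP2A is lowest with siLAT1-2.

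Each siRNA gave its own profile over the 40 genes, and both siRNAs of a series were set against the same siNC libraries. Wherever a library was left out, calls over all genes became fewer too. Without siEZH2-1 replicate 1 or siEZH2-1 replicate 2, the share of members lower with siEZH2-1 no longer exceeded that of all genes. With siEZH2-1, 5 members were higher and 11 lower (15.9% and 11.4% of all genes), and with siEZH2-2, 4 and 11 (13.9% and 10.9%). With siLAT1-2, 7 were higher and 11 lower (18.6% and 13.9% of all genes), and with siLAT1-3, 3 and 18 (17.9% and 13.6%). The siEZH2-1 total of 16 became smaller without siEZH2-1 replicate 1, siEZH2-1 replicate 2, siNC replicate 1 or siNC replicate 2. In each of these fits the share of members called lay nearer to that of all genes than in the full fit. Most of the loss was among the falls: 4 members were higher in each of these fits, whereas the 11 lower became 3, 1, 3 and 5, the 1 left without siEZH2-1 replicate 2 being AURKA. The siEZH2-2 total of 15 and the siLAT1-2 total of 18 became smaller without either siNC library. The siLAT1-3 total of 21 became smaller without siNC replicate 1. Here too the share of members called lay nearer to that of all genes than in the full fit. Tested against each other, siEZH2-2 was higher than siEZH2-1 for 2 members and lower for 7 (7.4% and 8.86% of all genes). That total of 9 became smaller with any library left out, and the 2 higher members lost their calls each time. Without siEZH2-1 replicate 1, siEZH2-2 replicate 1 or either siNC library, the share of members called lay below that of all genes. Against siLAT1-2, siLAT1-3 was higher for 4 members and lower for 12 (12.4% and 13.1% of all genes), a total of 16 that became 10 without siLAT1-2 replicate 1 or siLAT1-3 replicate 2. Besides CENPQ, CDK1 and ANLN (-0.20, limma adjusted p = 0.00929), the lower ones included HMMR (-0.29, adjusted p = 0.005), PTTG1 (-0.24, adjusted p = 0.0139) and MYBL2 (-0.22, adjusted p = 0.00162). TOP2A, CENPA (0.30), KIF2C (0.24) and CDC20 (0.18) were the 4 that were higher with siLAT1-3.

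The series had separate siNC libraries, so their calls can be set against each other. Of the 10 members lower with siEZH2, 9 were also lower with siLAT1 (90.0% of the EZH2 calls and 52.9% of the 17 LAT1 calls): ANLN, AURKA, CCNB1, CDC20, CENPE, HMMR, KIF20A, KIF23 and PLK1. With both siRNAs pooled as 1 group in each series the 9 became 3, AURKA, CCNB1 and PLK1, and without a filter on low values or without siNC replicate 1 of the EZH2 series 6. Of the 4 higher with siEZH2, BIRC5, MYBL2 and NUSAP1 were higher with siLAT1 too (75.0% of 4 and 60% of 5), and 0 members were called in opposite directions. Of these, BIRC5 alone was higher in both with the siRNAs pooled, MYBL2 alone without siNC replicate 2 of the LAT1 series, and MYBL2 and NUSAP1 without a filter on low values. Over all 10804 genes tested in both tables, 42.7% of the EZH2 calls that were lower were also lower in the LAT1 series (21.7% with the siRNAs pooled), and 57.1% of those that were higher were also higher. The mean changes correlated across the 40 genes at Pearson r = 0.52 and Spearman rho = 0.65, or 0.70 and 0.71 without CENPQ, and across all genes at 0.57 and 0.51. These are descriptions across genes that share their libraries, and genes are not independent replicates. The series used a negative control of the same name, so a change made by siNC itself cannot be told apart from a change made by all 4 siRNAs. SLC7A5, the target of the LAT1 series, also fell in the EZH2 series, to 24.9% of siNC with siEZH2-1 and 78.6% with siEZH2-2. The part of that fall in the shared calls was not tested.

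**Figure D4:**
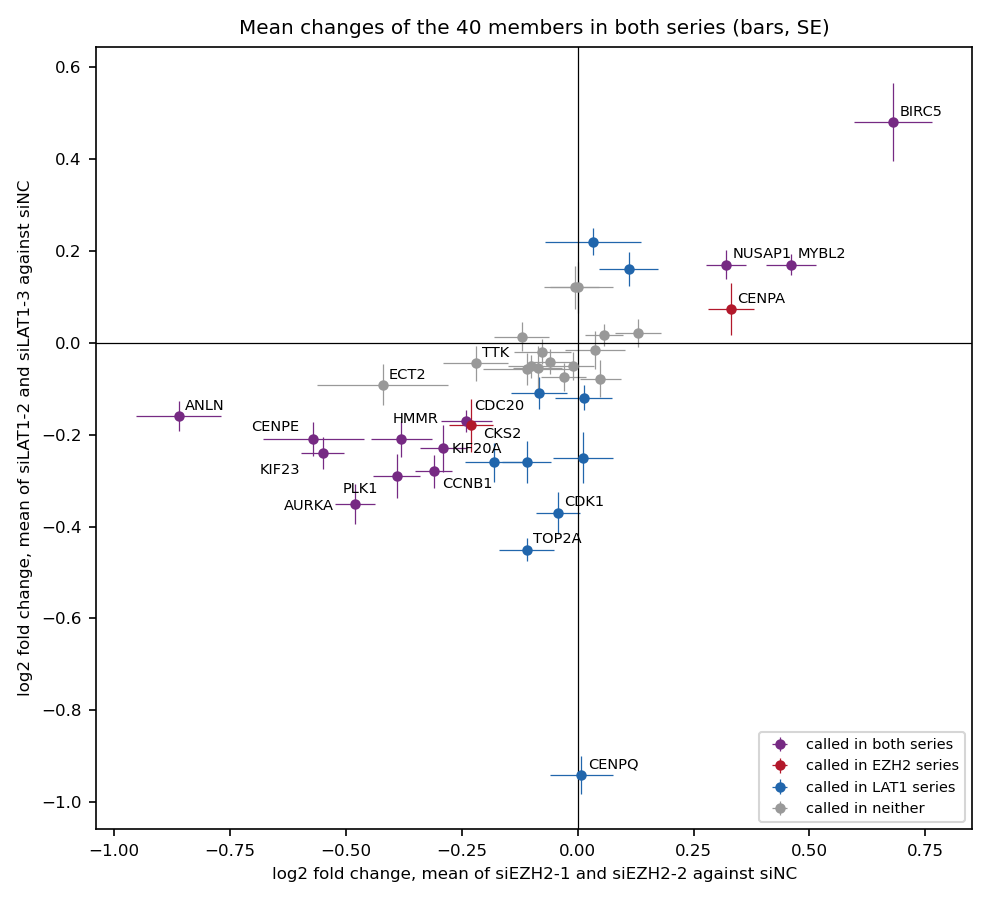
Mean log2 fold change of each of the 40 members against siNC in the EZH2 series (x axis) and LAT1 series (y axis), with SE bars, coloured by the series in which the member was called. The 9 members lower in both series sit at the lower left, BIRC5, NUSAP1 and MYBL2 at the upper right, and CENPQ at the bottom near 0 on the x axis.

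In the siNC libraries the members stood in a similar order in the series, while the levels of some differed. The tables were normalized separately, so these levels are set side by side without a test. The median member stood at 35.8 FPKM in the EZH2-series siNC and 35.1 FPKM in the LAT1-series siNC, and levels ranked alike (Spearman rho = 0.87, n = 40 genes). CKS2 was highest in the EZH2 series at 212 FPKM, followed by CCNB1 at 136 and ANLN at 131 FPKM, whereas MYBL2 led in the LAT1 series at 162 FPKM, followed by CKS2 and CDC20 at 128 FPKM each. The members that differed by 2-fold or more were NDC80, at 20.8 FPKM against 57.1 FPKM in the LAT1-series siNC, and DLGAP5, at 18.7 FPKM against 41.5 FPKM. Smaller differences went both ways, such as MYBL2 at 0.536 and ANLN at 1.69 times the LAT1-series level. BIRC5, at 4.59 and 4.66 FPKM, closed the order in both.

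Other genes of division, from fixed lists without any of the 40, did not all follow. Those lists too were chosen with earlier results of these data known. The shares of all genes to set them against are 17.0% higher and 13.0% lower with siEZH2 and 19.3% higher and 15.3% lower with siLAT1, and the medians of all genes 0.026 and 0.01. Of 34 other spindle, motor and checkpoint genes, 2 were higher and 10 lower with siEZH2 (5.88% and 29.4%, median log2 -0.10). With siLAT1, 2 were higher and 12 lower (5.88% and 35.3%, median -0.076). Like the 40 members, this list had a larger share of falls than all genes in both series. FAM83D, which recruits kinase activity to the spindle, fell in both (-0.46 and -0.40, limma adjusted p = 9.03e-04 and 2.34e-04), the motors KIF18B with siEZH2 (-0.33, adjusted p = 0.00378) and KIF14 with siLAT1 (-0.31, adjusted p = 8.04e-04) fell too, and TACC3, a spindle protein that AURKA phosphorylates, rose (0.33 and 0.23, adjusted p = 0.0204 and 0.00339). Of 31 other kinetochore and centromere genes tested, 10 were higher and 3 lower with siEZH2 (32.3% and 9.68%, median 0.092) and 8 higher and 3 lower with siLAT1 (25.8% and 9.68%). Their siLAT1 median, -0.026, lay below that of all genes although more were called higher than lower. ZW10, which recruits dynein to kinetochores, measured 32.16 and 29.57 FPKM with siEZH2-1 and 31.14 and 33.38 FPKM with siEZH2-2, against 9.15 and 9.85 FPKM with siNC. In the LAT1 series ZW10 measured 19.58 and 19.38 FPKM with siLAT1-2 and 19.36 and 21.31 FPKM with siLAT1-3, against 7.12 and 6.13 FPKM with siNC. The ZW10 rise was of like size with the 4 siRNAs (log2 1.60, 1.66, 1.43 and 1.49 for siEZH2-1, siEZH2-2, siLAT1-2 and siLAT1-3), and its partner ZWINT rose with siEZH2 (0.59, adjusted p = 3.66e-04).

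Of 25 genes of the APC/C and of mitotic entry and exit, 4 were higher and 1 lower with siEZH2 (16.0% and 4.0%) and 4 higher and 5 lower with siLAT1 (16.0% and 20%). Apart from the low share of falls with siEZH2, these are near the shares of all genes. The phosphatase inhibitor ENSA, which the Greatwall kinase activates at mitotic entry, rose in both (0.93 and 0.78, limma adjusted p = 1.96e-04 and 1.33e-05), while its relative ARPP19 fell with siLAT1 (-0.32, adjusted p = 0.00132). CDC25A, the phosphatase of S phase entry and mitosis, rose in both (0.37 and 0.45, adjusted p = 0.00164 and 1.53e-04). Condensin and cohesin genes gave 3 higher and 3 lower of 19 with siEZH2 (15.8% each) and 3 higher (15.8%) and 0 lower with siLAT1. Of the MuvB and DREAM subunits, 2 of 9 were higher (22.2%) and 0 lower with siEZH2 and 4 of 10 higher (40.0%) and 1 lower with siLAT1, counts too small to set apart from all genes, TFDP1, the E2F partner, in both (0.29 and 0.33, adjusted p = 0.00378 and 1.60e-04). Of 45 DNA replication genes, 27 were higher and 1 lower with siEZH2 (median 0.22) and 25 higher and 1 lower with siLAT1 (median 0.12), E2F1 among them (0.59 and 0.44, adjusted p = 0.00212 and 5.44e-04). The proliferation antigen MKI67 was not called with either mean (-0.052 and -0.064), though it fell with siLAT1-3 (-0.22, adjusted p = 0.00673), and the G1 regulators CCND1 (-2.15 and -0.37) and CDKN1A (-0.89 and -1.02) fell. The part of these other genes in the changes of the 40 was not tested.

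**Figure D5:**
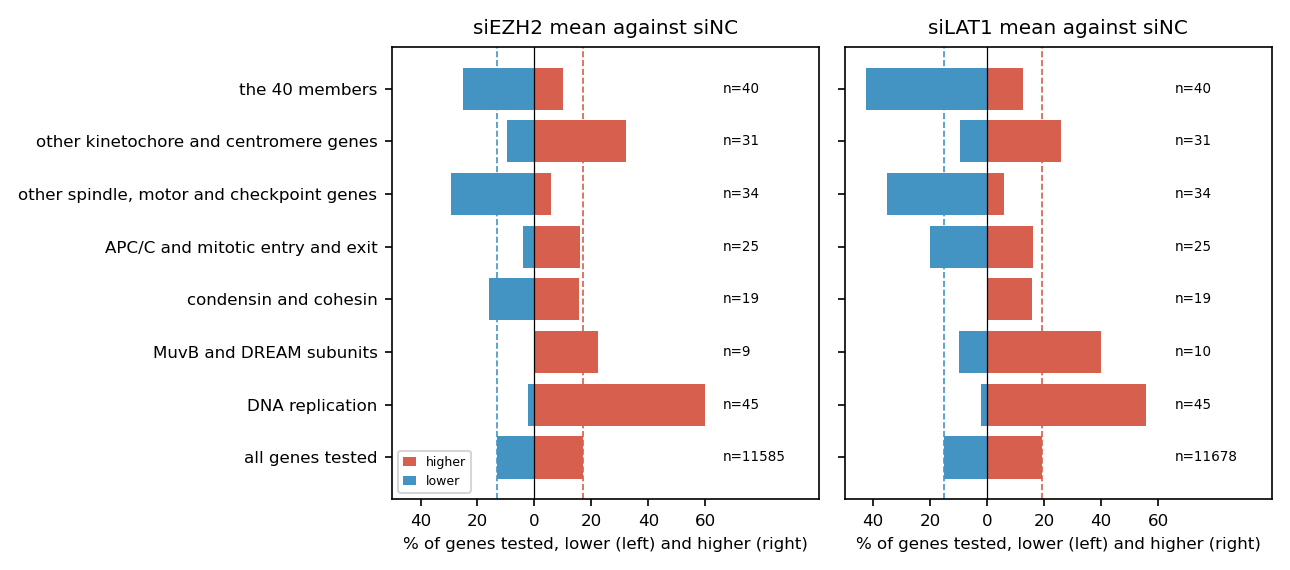
Share of genes called lower (left, blue) and higher (right, red) with the mean of both siRNAs against siNC, in percent of the genes tested in each list (n), for the EZH2 series (left panel) and LAT1 series (right panel). Dashed lines are the shares over all genes. In both panels the 40 members and the other spindle, motor and checkpoint genes extend past the blue line. DNA replication genes, other kinetochore and centromere genes and the few MuvB and DREAM subunits extend past the red line in both.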

How the data were processed

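RNA was sequenced from KYSE510 cells in 2 series of 6 libraries; CUT&Tag samples of KYSE510 and FADU were not analysed here. The values deposited by the authors are FPKM per gene, 1 table per series; the labels do not name the unit, which was taken from the values, and the aligner settings and build behind each table are not given in the sources used here. The submitters' processing notes name STAR, Bowtie, Bowtie2, Trim Galore, Picard, SEACR, hg19 and hg38 without saying which served the RNA. No library or column was left out.

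Genes whose 6-library mean reached 1 FPKM were tested on log2(FPKM + 1) with limma 3.58.1 (trend, R 4.3.3), 3 groups per table, Benjamini-Hochberg adjusted over all genes and called under 0.05, two-sided. Fold changes on that scale understate low genes. The exact permutation test of 4 against 2 libraries cannot go below p = 0.0667, so it was not used. The tables were normalized separately, and tests were run within a table. Depth was recovered from the steps between low values (whole within 0.12 reads). Summaries used Python 3.11.15, pandas 2.3.3 and numpy 2.4.6. The fit was tested on simulated data. Replicate numbers are from the labels, which tie them to no shared culture or day. Same-numbered deviations did not go together in every pair of groups, so the number was a block only as an alternative.

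The members and lists were chosen with earlier results of these data known. All 40 members are accounted for; of the other lists, the text names at most the 2 highest and 2 lowest genes called with the mean and with each siRNA in 1 direction. The settings varied were the filter (none, or 5 FPKM), the pseudocount (0.1), quantile normalization, pooling of siRNAs, a replicate block and the omission of each library. Promoter windows and sequences are from RefSeq (GRCh38.p14).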

Additional observations from a re-analysis of the deposited data

Results flagged for a closer look

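CENPQ stood out because the siRNAs against LAT1 differed in their effect on it by a direct test: siLAT1-3 minus siLAT1-2 was -2.03 on the log2 scale (95% interval -2.15 to -1.92, limma adjusted p = 5.36e-06). The level was 5.27 and 5.41 FPKM with siLAT1-3 and 23.93 and 25.99 FPKM with siLAT1-2. The cause was not tested.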

How the results depend on the processing

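Of 40 members, 14 were called with the siEZH2 mean and 22 with the siLAT1 mean, and no called value changed sign under the alternatives run. With both siRNAs pooled as 1 group the counts were 7 and 6, and 9.95% and 11.2% of all genes were called. Without a filter on low values the counts were 9 for siEZH2-1, 9 for siEZH2-2, 4 for siEZH2-2 against siEZH2-1, 9 for siLAT1-2, 13 for siLAT1-3 and 7 for siLAT1-3 against siLAT1-2. In the same order, 5.39%, 5.22%, 2.81%, 8.85%, 8.36% and 6.35% of all genes were then called. Leaving out each library gave 10 to 16 for the siEZH2 mean, 5 to 13 for siEZH2-1, 9 to 12 for siEZH2-2, 2 to 5 for siEZH2-2 against siEZH2-1, 17 to 24 for the siLAT1 mean, 9 to 20 for siLAT1-2, 13 to 20 for siLAT1-3 and 10 to 13 for siLAT1-3 against siLAT1-2. The cause was not tested. Where a group was left with 1 library, that library was assumed to vary like the others. With any library left out, fewer of all genes were called as well. Quantile normalization, a pseudocount of 0.1 and a filter at 5 FPKM kept all 8 counts within 1.5 times. With TTCGAA added the CHR share was 67.6% of member promoters and 6.75% of all genes, and over the whole 300 bases 67.6% and 18.2%.

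With the replicate number as a replicate block the counts were 8 for siEZH2-1 (4 higher and 4 lower) and 3 for siEZH2-2 against siEZH2-1, and 14 and 21 for the siEZH2 and siLAT1 means. In the same order, the block fits called 17.3%, 8.81%, 20.6% and 32.3% of all genes. Deviations of same-numbered libraries correlated at -0.353, 0.355 and -0.339 for EZH2-series groups and at 0.018, 0.033 and 0.083 for LAT1-series groups. The EZH2-series values differ in sign between pairs of groups, and the labels tie no number to a shared culture, so the numbers were not taken to pair the libraries. Whether depth limits the precision of low members was not tested.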
